A study of Mus musculus with 12 samples.

Results

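The insulin and insulin-like growth factor (IGF) signalling genes examined here were Insr, Igf1r, Irs1, Irs2, Pik3r1, Igf1, Igfbp3 and Igfbp7, 8 of the 21638 genes counted in sorted endothelial cells of the adult mouse brain cortex. They were selected on measured values: the set was put together with the higher Insr level of Hdac2 ECKO in view, so member values of Hdac2 ECKO against wild type (WT) are given as a description, and a count of members past a threshold there is read as support for nothing. The other contrasts against WT reuse the WT libraries that this choice had in view. The study compared 4 groups of 3 libraries, namely WT, Hdac2 ECKO (Hdac2lox/lox:Cdh5CreERT2, endothelial deletion of a histone deacetylase), Ezh2 ECKO (Ezh2lox/lox:Cdh5CreERT2, endothelial deletion of a histone methyltransferase) and beta-catenin GOF (Ctnnb1lox/lox:Cdh5CreERT2, constitutive activation of beta-catenin). Cdh5CreERT2 is a Cre recombinase under an endothelial cadherin promoter that acts after tamoxifen, and the mutants received 5 tamoxifen doses of 75 mg/kg, with brains taken after 2 months. The labels do not say whether WT mice carried Cre or received tamoxifen, nor whether a library came from 1 animal or a pool, and mouse ages are given only as adult. The sort kept CD31+ cells that lacked CD41 and CD45, which enriches endothelium over platelets and leukocytes, and SMART-Seq v4 PLUS was used for the libraries, a low-input kit that copies whole transcripts into cDNA.

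Insulin and the IGFs bind receptor tyrosine kinases encoded by Insr and Igf1r, which phosphorylate the docking proteins Irs1 and Irs2. Docked PI3-kinase, whose regulatory subunit p85α comes from Pik3r1, activates Akt, which restrains Foxo transcription factors and acts on mTOR, while a second branch runs through Grb2, Sos and Ras to the MAP kinases. Binding proteins such as Igfbp3 hold IGFs outside the cell, and Igfbp7 is a secreted, IGF-binding-related protein made abundantly by endothelium. Brain endothelial cells carry insulin and IGF receptors at the blood-brain barrier, where the insulin receptor also takes part in carrying insulin into the brain.

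Each library held 24781070 to 36109975 counts, and a level is given as CPM, the count scaled to a common library total after TMM normalization. Of 11 endothelial markers all were detected in every group, with a summed level of 16851 to 24107 CPM per library, and 5 erythrocyte markers, the globins and Alas2, were as abundant or more so in some libraries, at 36133 to 61379.5 CPM in WT, 401 to 21676 in Hdac2 ECKO, 2519 to 6664 in labelled Ezh2 ECKO and 509.8 to 35370.1 in beta-catenin GOF. Summed markers reached at most 573 CPM for fibroblasts, 422 for neurons, 384 for pericytes and smooth muscle, 129 for leukocytes and platelets, 79.5 for astrocytes, 66.6 for oligodendrocytes and 18.1 for microglia and macrophages. Without overlap, Hdac2 ECKO lay below WT for endothelial and neuronal markers and above it for pericyte and astrocyte markers, whose part in the values below was not tested. The deleted genes did not mark their groups clearly. Hdac2 was at 129 ± 30.1 CPM in WT and 96.5 ± 15.2 in Hdac2 ECKO (SD, n = 3, edgeR adjusted p 0.22), but also at 96.2 ± 10.1 in beta-catenin GOF. Ezh2 was at 6.75 ± 3.52 CPM in WT and 8.92 ± 3.36 in the libraries labelled Ezh2 ECKO, with 9.49 ± 4.39 in Hdac2 ECKO and 9.36 ± 1.31 in beta-catenin GOF. Ezh2 thus goes against its label, so those libraries are called "labelled Ezh2 ECKO" throughout. Gene-level counts do not resolve deleted exons. Labelled Ezh2 ECKO replicate 2 stood apart from replicates 1 and 3: on the first principal component (41.1% of variance) it lay at −20.9, near WT and beta-catenin GOF, against 44.0 and 40.3. That component moved with gene length, as did the log2 fold changes, so values of the tested members after a correction for length and GC content stand beside the uncorrected ones.

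Promoter windows were read from RefSeq (GRCm38.p6) to show what the members share before an annotated start site. Of the 8 members 7 had an entry, with 8 windows of 250 bases between them, and Insr had none. Both strands were searched for CTTTGA, the core bound by TCF/LEF factors through which beta-catenin acts, and for GTAAACA, a Foxo site. CTTTGA was in 13.8% of 32817 mouse promoter windows of this length and GTAAACA in 3.16%. The Igf1r and Igf1 windows each held 1 CTTTGA, and no member window held GTAAACA. The Igf1 window and 1 of the Pik3r1 windows precede an internal start, and all 250 bases of the former are exonic in GENCODE M21, while the other 7 windows hold no exonic base. Printed are Igf1r, the tested member whose window held a CTTTGA (in capitals), and Igfbp7, the most abundant member per gene length, which held neither motif.
Igf1r, chr7:67952007-67952256, plus strand: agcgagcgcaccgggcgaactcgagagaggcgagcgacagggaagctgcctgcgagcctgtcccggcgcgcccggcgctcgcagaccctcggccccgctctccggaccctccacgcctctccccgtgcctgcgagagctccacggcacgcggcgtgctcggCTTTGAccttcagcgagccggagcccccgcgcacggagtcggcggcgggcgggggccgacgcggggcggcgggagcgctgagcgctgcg
Igfbp7, chr5:77408046-77408295, minus strand: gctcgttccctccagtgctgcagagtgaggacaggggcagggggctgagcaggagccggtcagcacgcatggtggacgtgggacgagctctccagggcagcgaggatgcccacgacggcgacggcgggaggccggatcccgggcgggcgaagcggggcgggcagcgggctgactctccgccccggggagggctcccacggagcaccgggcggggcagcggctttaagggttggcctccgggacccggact
Both windows were dense in CpG, with 42 CpG in Igf1r (more than in 99.1% of promoters) and 26 in Igfbp7 (more than in 90.4%), where the median promoter had 6. A match of letters is a description of the sequence, and no binding was measured.

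**Figure D1:**
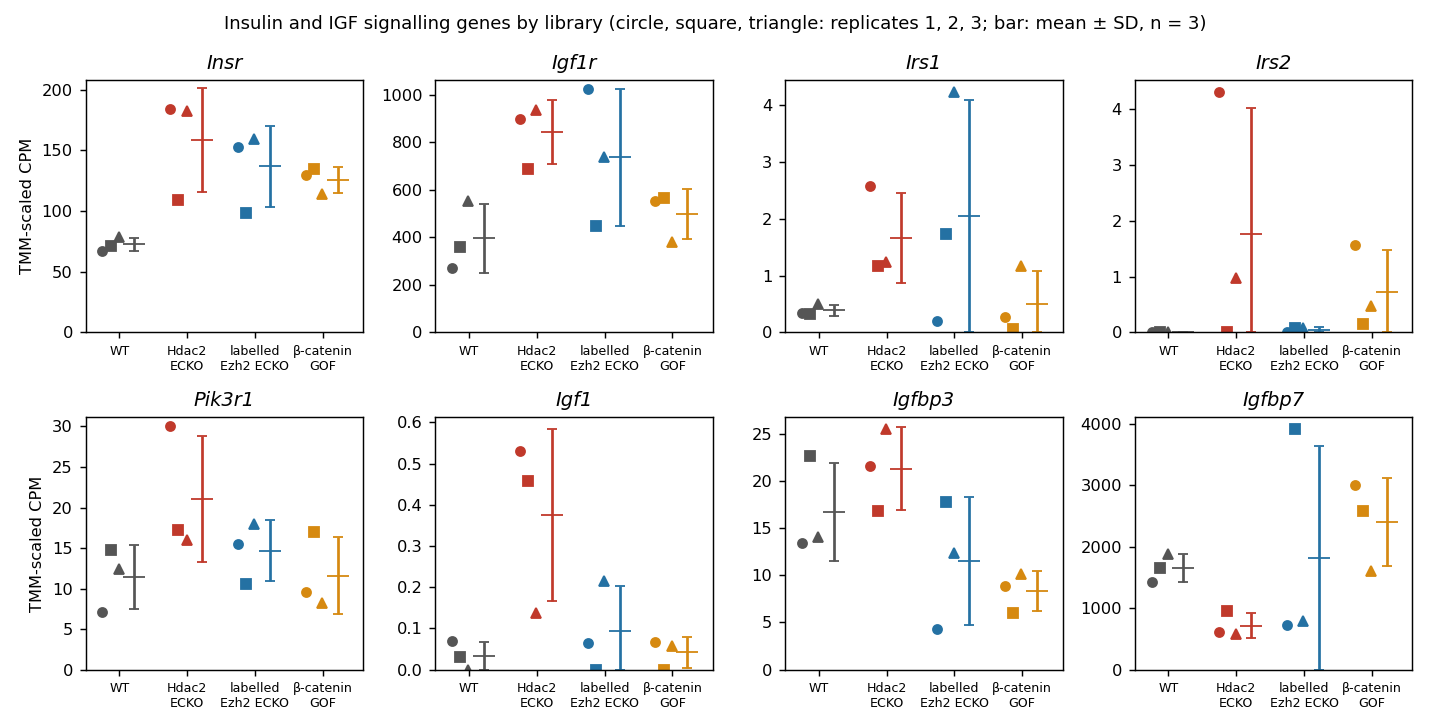
TMM-scaled CPM of the 8 members (y axis, linear, from 0) in each of 12 libraries by group, with circles, squares and triangles for replicates 1, 2 and 3 and a bar for mean ± SD (n = 3), drawn no lower than 0. All 9 mutant libraries stand above the WT libraries for Insr, and labelled Ezh2 ECKO replicate 2 stands apart for Igfbp7 at 3914 CPM.

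Insr (ENSMUSG00000005534.10, chromosome 8, 3122061 to 3279617, minus strand, GRCm38), the insulin receptor, was lowest in WT. Levels in replicates 1, 2 and 3 were 67.4, 71.4 and 78.6 CPM for WT, 184, 109 and 182 CPM for Hdac2 ECKO, 153, 98.7 and 159 CPM for labelled Ezh2 ECKO and 129, 134 and 114 CPM for beta-catenin GOF. All 9 mutant libraries lay above all 3 WT libraries, as they did for 1.99% of the 12577 tested genes, and the WT and Hdac2 ECKO libraries among them were the ones that chose the gene. Summed markers of 2 other cell types split the libraries in the same way: erythrocyte markers were at 36133 CPM or more in WT and 35370.1 or less in all 9 mutant libraries, and astrocyte markers at 24.3 to 36.2 CPM in WT and 37.8 to 79.5 CPM in the 9. Their part in the Insr levels was not tested. The 3 mutant groups overlapped each other, in the order beta-catenin GOF at 126 ± 10.7 CPM, labelled Ezh2 ECKO at 137 ± 33.3 and Hdac2 ECKO at 158 ± 43.0, against 72.5 ± 5.68 in WT. Replicates agreed most closely in WT and beta-catenin GOF, with a coefficient of variation of 7.84% and 8.51%, against 27.1% and 24.3% in the other groups.

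The log2 fold change of Insr against WT was 1.13 (SE 0.26) in Hdac2 ECKO and lay between 0.98 and 1.29 when single libraries were left out. Corrected for length and GC content, it was 0.30 (SE 0.18). For labelled Ezh2 ECKO the value was 0.92 (SE 0.26), short of the threshold of 0.05 (edgeR adjusted p 0.073). It passed without labelled Ezh2 ECKO replicate 2, at 1.11 (adjusted p 0.0125, range over the 6 fits that leave out 1 library 0.0125 to 0.26). It also passed with no filter, sample quality weights and DESeq2 (adjusted p over 11 other settings 0.00245 to 0.17), and the corrected value was 0.44 (adjusted p 0.17). In beta-catenin GOF the log2 fold change was 0.80 (SE 0.26, adjusted p 0.66) and 0.58 after the correction, the least reduced of the 3, and it passed under none of the 11 other settings.

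Igf1r (ENSMUSG00000005533.10, chromosome 7, 67952827 to 68233668, plus strand), the IGF1 receptor, was the more abundant receptor per length in every library. In replicates 1, 2 and 3 it stood at 271, 362 and 554 CPM for WT, 900, 688 and 938 CPM for Hdac2 ECKO, 1023, 446 and 740 CPM for labelled Ezh2 ECKO and 554, 566 and 378 CPM for beta-catenin GOF. WT itself spanned a wide range, Hdac2 ECKO lay wholly above it, and the other groups overlapped it. The log2 fold change was 1.09 (SE 0.33) in Hdac2 ECKO, and 0.27 (SE 0.23) after the correction.

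For labelled Ezh2 ECKO against WT, the Igf1r log2 fold change was 0.90 (SE 0.33) and missed the threshold (edgeR adjusted p 0.12). Leaving out WT replicate 3 or labelled Ezh2 ECKO replicate 2 brought it past the threshold, at 1.22 (adjusted p 0.042) and 1.16 (adjusted p 0.0215), within a range of 0.0215 to 0.41 over the 6 such fits. Sample quality weights did so too (adjusted p 0.00312, range over 11 other settings 0.00312 to 0.28), and the corrected value was 0.43 (adjusted p 0.28). In beta-catenin GOF it was 0.34 (SE 0.33, adjusted p 0.94), 0.09 after the correction.

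Per kilobase of gene length, Igf1r stood at 2.72 to 5.77 times the level of Insr over the 12 libraries. The ratio was 3.30, 4.14 and 5.77 for WT, 4.00, 5.17 and 4.21 for Hdac2 ECKO, 5.48, 3.70 and 3.80 for labelled Ezh2 ECKO and 3.50, 3.44 and 2.72 for beta-catenin GOF. The WT ratios spanned nearly the whole range of the 12, and only 1 beta-catenin GOF library fell below them.

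Irs1 (ENSMUSG00000055980.2, chromosome 1, 82233101 to 82291416, minus strand), a docking protein of both receptors, was close to the limit of detection. Replicates 1, 2 and 3 gave 0.35, 0.32 and 0.50 CPM for WT, 2.58, 1.17 and 1.25 CPM for Hdac2 ECKO, 0.19, 1.73 and 4.24 CPM for labelled Ezh2 ECKO and 0.27, 0.053 and 1.16 CPM for beta-catenin GOF. Hdac2 ECKO lay above WT and the other groups overlapped it, with labelled Ezh2 ECKO spread from below the lowest WT library to the highest value of the 12. The log2 fold change was 2.09 (SE 1.12) in Hdac2 ECKO, 2.40 (SE 1.13, edgeR adjusted p 0.20) in labelled Ezh2 ECKO and 0.35 (SE 1.10, adjusted p 0.98) in beta-catenin GOF. After the correction these were 1.54, 2.14 and 0.17. Without beta-catenin GOF replicate 3 the uncorrected beta-catenin GOF value turned to −1.26. The gene is uncertain, since 2822 of its 9144 exonic bases are shared with Gm9747 on the opposite strand and the use of strand in counting is not given in the sources used here.

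Irs2 (ENSMUSG00000038894.7, chromosome 8, 10984681 to 11008458, minus strand), the second docking protein, had no count in WT. Counts in replicates 1, 2 and 3 were 0, 0 and 0 for WT, 114, 0 and 28 for Hdac2 ECKO, 0, 2 and 2 for labelled Ezh2 ECKO and 46, 6 and 16 for beta-catenin GOF. A count of 0 allows up to 3 counts, or 0.0950 to 0.107 CPM, in a WT library. Within Hdac2 ECKO 1 library gave 114 of 142 counts and another none, so that group overlapped WT, while all 3 beta-catenin GOF libraries lay above it.

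Against that floor of 3 counts per WT library, Irs2 was at least 17.3-fold higher in Hdac2 ECKO and at least 7.17-fold higher in beta-catenin GOF. Each bound rested largely on 1 library: it was 4.76-fold without Hdac2 ECKO replicate 1 and 3.05-fold without beta-catenin GOF replicate 1. The beta-catenin GOF difference did not pass (edgeR adjusted p 0.66, 0.57 after the correction), and of 11 other settings only the one with no filter brought it past the threshold (adjusted p 0.0194, range 0.0194 to 0.88). Labelled Ezh2 ECKO was at or under the floor (adjusted p 0.36), so no fold is given. Irs2 shares 162 exonic bases with 9530052E02Rik on the opposite strand.

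Markers of pericytes and smooth muscle, 11 genes such as Pdgfrb, Rgs5 and Acta2, were all detected in each group and moved with Irs2. Their sums in replicates 1, 2 and 3 were 67.7, 87.3 and 125 CPM for WT, 328, 133 and 242 CPM for Hdac2 ECKO, 59.0, 76.7 and 61.6 CPM for labelled Ezh2 ECKO and 384, 123 and 124 CPM for beta-catenin GOF. The 3 libraries highest in these markers also had the 3 highest Irs2 levels. Their part in the Irs2 values was not tested, and in bulk RNA more cells of a type cannot be told apart from more RNA per cell.

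**Figure D2:**
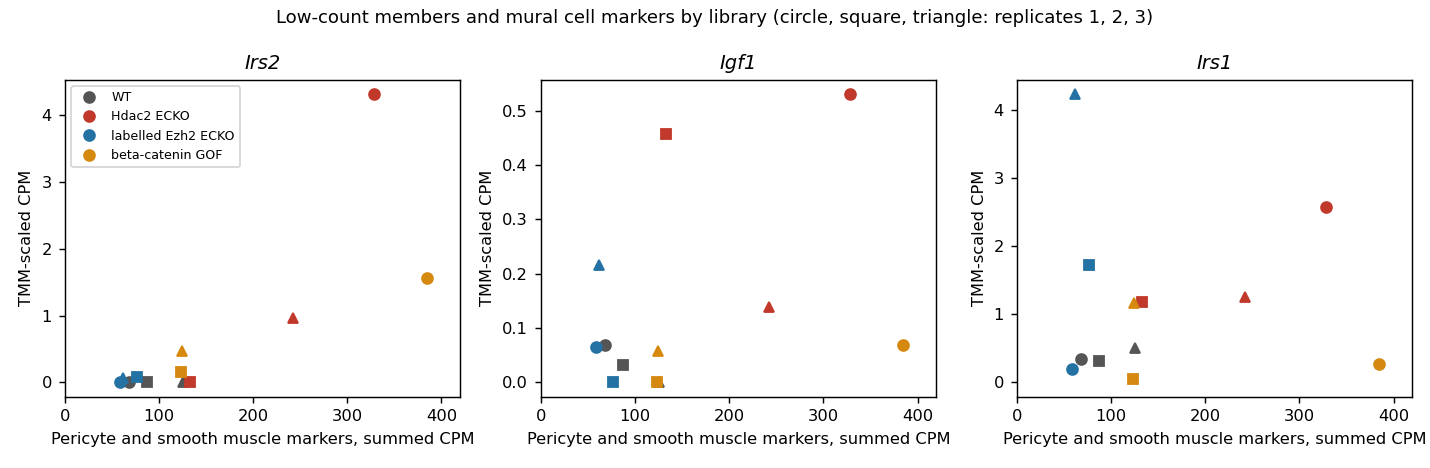
Summed CPM of 11 pericyte and smooth muscle markers (x axis) against TMM-scaled CPM of Irs2, Igf1 and Irs1 (y axes), 1 point per library, with colours for groups and symbols for replicates. Hdac2 ECKO replicates 1 and 3 and beta-catenin GOF replicate 1, at 328, 242 and 384 CPM of markers, hold the 3 highest Irs2 levels, while the highest Irs1 level lies at 61.6 CPM of markers.

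Pik3r1 (ENSMUSG00000041417.15, chromosome 13, 101680563 to 101768217, minus strand), the regulatory subunit of PI3-kinase, was a low but steadily counted member. In replicates 1, 2 and 3 it stood at 7.15, 14.8 and 12.4 CPM for WT, 30.0, 17.3 and 15.9 CPM for Hdac2 ECKO, 15.5, 10.5 and 18.0 CPM for labelled Ezh2 ECKO and 9.59, 17 and 8.22 CPM for beta-catenin GOF. Hdac2 ECKO lay above WT, though its lowest library exceeded the highest WT library by little, and the other groups overlapped WT. The log2 fold change was 0.88 (SE 0.38) in Hdac2 ECKO, 0.36 (SE 0.38, edgeR adjusted p 0.58) in labelled Ezh2 ECKO and 0.02 (SE 0.38, adjusted p 1.00) in beta-catenin GOF. The correction for length and GC content brought these to 0.21, −0.04 and −0.09, so the last 2 changed sign. The shorter p55 and p50 forms made from internal starts of Pik3r1 are not resolved by gene-level counts.

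Igf1 (ENSMUSG00000020053.18, chromosome 10, 87858265 to 87937042, plus strand), the ligand, was the member with the fewest counts and was not tested, since its mean count was below 10. WT held 2, 1 and 0 counts, Hdac2 ECKO 14, 14 and 4, labelled Ezh2 ECKO 2, 0 and 6, and beta-catenin GOF 2, 0 and 2. The 3 Hdac2 ECKO libraries were the highest but for a labelled Ezh2 ECKO library at 6, and at these counts no fold is given. Markers of microglia, a source of IGF1 in brain, and of macrophages summed to 3.54 to 18.1 CPM per library, and their part in the Igf1 counts was not tested.

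Igfbp3 (ENSMUSG00000020427.11, chromosome 11, 7206086 to 7213923, minus strand), an IGF carrier, was lowest in beta-catenin GOF. Replicates 1, 2 and 3 gave 13.4, 22.7 and 14.1 CPM for WT, 21.6, 16.8 and 25.5 CPM for Hdac2 ECKO, 4.34, 17.8 and 12.4 CPM for labelled Ezh2 ECKO and 8.87, 5.96 and 10.1 CPM for beta-catenin GOF. The beta-catenin GOF libraries all lay below WT, and the other groups overlapped it. In beta-catenin GOF the log2 fold change was −1.01 (SE 0.42), which missed the threshold (edgeR adjusted p 0.78), and −0.96 after the correction, close to the uncorrected value. Labelled Ezh2 ECKO gave −0.54 (SE 0.42, adjusted p 0.44) and −0.21 after the correction, and the uncorrected value passed only with sample quality weights, at −1.30 (adjusted p 0.023, range over 11 other settings 0.023 to 0.80). Hdac2 ECKO gave 0.35 (SE 0.42), and 0.63 after the correction.

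Igfbp7 (ENSMUSG00000036256.13, chromosome 5, 77349240 to 77408041, minus strand) was by far the most abundant member per kilobase of gene length. In CPM, Igf1r had the higher mean in Hdac2 ECKO (842 against 713), though not in its replicate 2 (688 against 947). Igf1r was also higher in labelled Ezh2 ECKO replicate 1 (1023 against 732 CPM). Levels in replicates 1, 2 and 3 were 1430, 1653 and 1885 CPM for WT, 617, 947 and 574 CPM for Hdac2 ECKO, 732, 3914 and 793 CPM for labelled Ezh2 ECKO and 3006, 2590 and 1611 CPM for beta-catenin GOF. Hdac2 ECKO lay below WT in all 3 libraries, labelled Ezh2 ECKO had 2 libraries below WT and 1 above every other library of the study, and beta-catenin GOF overlapped WT. The log2 fold change was −1.22 (SE 0.51) in Hdac2 ECKO, and −0.74 (SE 0.33) after the correction. Igfbp7 shares 85 exonic bases with Polr2b on the opposite strand.

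In labelled Ezh2 ECKO the Igfbp7 log2 fold change turned on 1 library. It was 0.13 (SE 0.50, edgeR adjusted p 0.90) with all 3, 0.17 after the correction, and −1.12 (adjusted p 0.0265) without labelled Ezh2 ECKO replicate 2, where the adjusted p over the 6 fits that leave out 1 library ran from 0.0265 to 0.99. Sample quality weights put it at −0.87 (adjusted p 0.0469, range over 11 other settings 0.0469 to 0.97). That library also had the highest summed level of leukocyte and platelet markers, 129 CPM against 5.65 to 59.1 CPM in the others. It was highest as well for neuronal markers (422 CPM) and for those of microglia and macrophages (18.1 CPM), and had the lowest of the length slants given below (−0.65). The part of these in its Igfbp7 level was not tested. In beta-catenin GOF the value was 0.54 (SE 0.50, adjusted p 0.93), 0.45 after the correction.

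Compared per kilobase of gene length in WT, Igfbp7 stood at 1370 ± 188 CPM per kb, above 99.8% of the tested genes. Igf1r followed at 23.6 ± 8.60 CPM per kb, then Igfbp3 at 5.34 ± 1.65 and Insr at 5.27 ± 0.41, which did not differ beyond their spread. Pik3r1 was at 1.13 ± 0.39, Irs1 at 0.042 ± 0.011, Igf1 at 0.0034 ± 0.0035, and Irs2 had no count. The docking proteins were thus the scarcest transcripts of the set beside the ligand, and the receptors stood above 60.2% (Insr) and 83.1% (Igf1r) of tested genes.

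Of the 8 members 7 passed the filter of a mean count of at least 10. Against WT, 2 of these 7 (Insr and Irs2) were past an adjusted p of 0.05 in Hdac2 ECKO, where 9.2% of all tested genes were. This count restates the choice of the members and tests nothing. It fell to 0 without WT replicate 1, WT replicate 2, Hdac2 ECKO replicate 1 or Hdac2 ECKO replicate 3, and to 0 after the correction, where 6.62% of genes passed. No member passed in labelled Ezh2 ECKO (1.03% of genes, 2.39% after the correction) or in beta-catenin GOF (0.0% of genes before and after it). At an unadjusted p under 0.05 the last 2 contrasts held 2 and 3 members, where the shares of all genes were 24.7% and 6.07%. DESeq2 called 1 member, Insr, in labelled Ezh2 ECKO, where it called 614 of 12577 genes higher and 657 lower. In beta-catenin GOF it called no member, with 13 genes higher and 25 lower.

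Of the 7 tested members, those above WT without overlap were 4 for Hdac2 ECKO (19.5% of genes), 1 for labelled Ezh2 ECKO (11.1%) and 2 for beta-catenin GOF (6.83%). Those below were 1 (18.2%), 0 (10.9%) and 1 (5.87%). Igf1, which was not tested, also lay above WT in Hdac2 ECKO. In each of the 3 contrasts 6 of the 7 members had a log2 fold change above 0, or 5 of 6 without Irs2, where 54.0%, 52.6% and 51.1% of all genes did. The median over the 7 was 1.09, 0.90 and 0.35, and 0.99, 0.63 and 0.34 without Irs2, whose fitted value rests on a WT of 0 counts. Over all tested genes the medians were 0.097, 0.048 and 0.0099, and after the correction those of the 7 were 0.30, 0.43 and 0.17. These contrasts share the WT libraries.

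**Figure D3:**
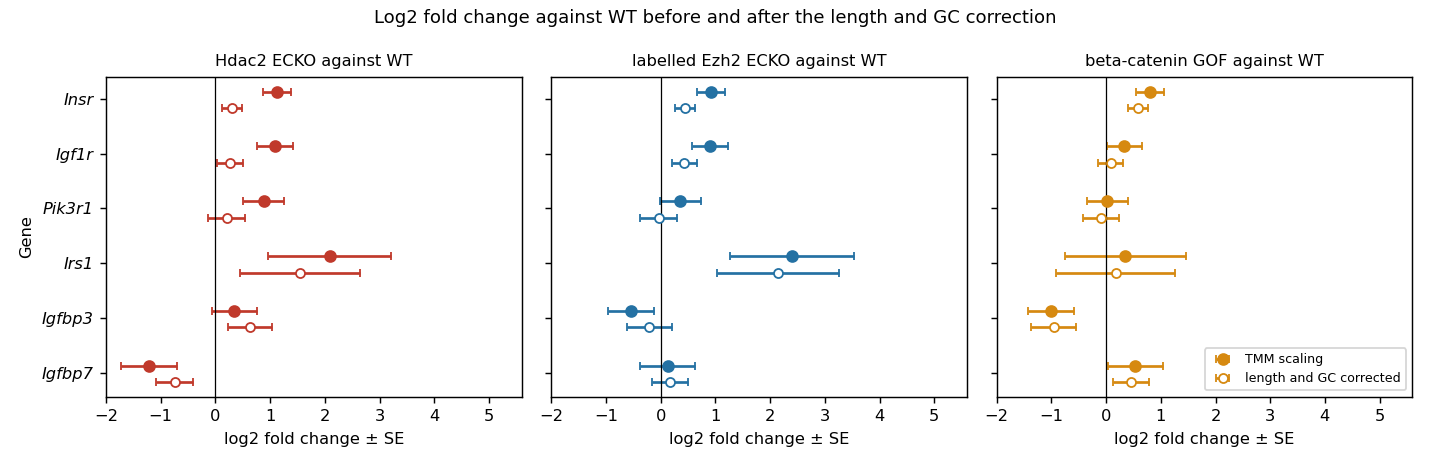
Log2 fold change against WT ± SE (x axis) of the 6 tested members with counts in WT, with filled points for TMM scaling and open points after the correction for gene length and GC content. In Hdac2 ECKO the correction moves Insr from 1.13 to 0.30 and Igf1r from 1.09 to 0.27, and in beta-catenin GOF it moves Insr from 0.80 to 0.58.

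The members differed widely in gene length. Igf1r (16791 bases), Insr (13746), Pik3r1 (10079) and Irs1 (9144) belonged to the longest quintile of the tested genes, Irs2 (6323) to the fourth quintile, Igfbp3 (3130) to the second and Igfbp7 (1209) to the shortest. In Hdac2 ECKO against WT the median log2 fold change ran from −0.52 in the shortest quintile to 0.66 in the longest. Insr at 1.13, Igf1r at 1.09 and the low-count Irs1 at 2.09 lay above the upper quartile of their quintile (0.97). Pik3r1 at 0.88 lay below it, and Igfbp7 at −1.22 below the lower quartile of its quintile (−1.09). The longest quintile spans 7663 to 123179 bases, and Insr and Igf1r were longer than 96.3% and 98.2% of tested genes.

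For labelled Ezh2 ECKO the medians were −0.21 in the shortest quintile, −0.27 in the second and 0.43 in the longest. Insr, Igf1r and Irs1 (2.40) lay above the upper quartile of the longest, 0.79. In beta-catenin GOF the medians were −0.01 in the shortest quintile, −0.11 in the second and 0.13 in the longest. Insr at 0.80 lay above the upper quartile of 0.37, and Igf1r at 0.34 and Irs1 at 0.35 did not. Across the 12577 genes, which are not independent replicates, the Spearman correlation of log2 fold change with length was 0.44, 0.29 and 0.14, and between −0.03 and 0.0027 after the correction.

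The same slant appeared library by library, as the median log2 level of the longest quintile less that of the shortest, relative to the mean of the 12 libraries. WT had −0.53, −0.35 and −0.36, Hdac2 ECKO 0.81, 0.23 and 0.64, labelled Ezh2 ECKO 0.49, −0.65 and 0.54, and beta-catenin GOF −0.35, −0.24 and −0.24. The 4 libraries with the largest slant, Hdac2 ECKO replicates 1 and 3 and labelled Ezh2 ECKO replicates 1 and 3, were also the 4 highest for Insr and for Igf1r. Within both groups replicate 2 had the lowest slant and the lowest level of both receptors. Beta-catenin GOF had slants of −0.35 to −0.24, against −0.53 to −0.35 in WT, and had Insr above WT in 3 of 3 libraries. The part of the slant in the receptor levels was not tested beyond the corrected values.

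**Figure D4:**
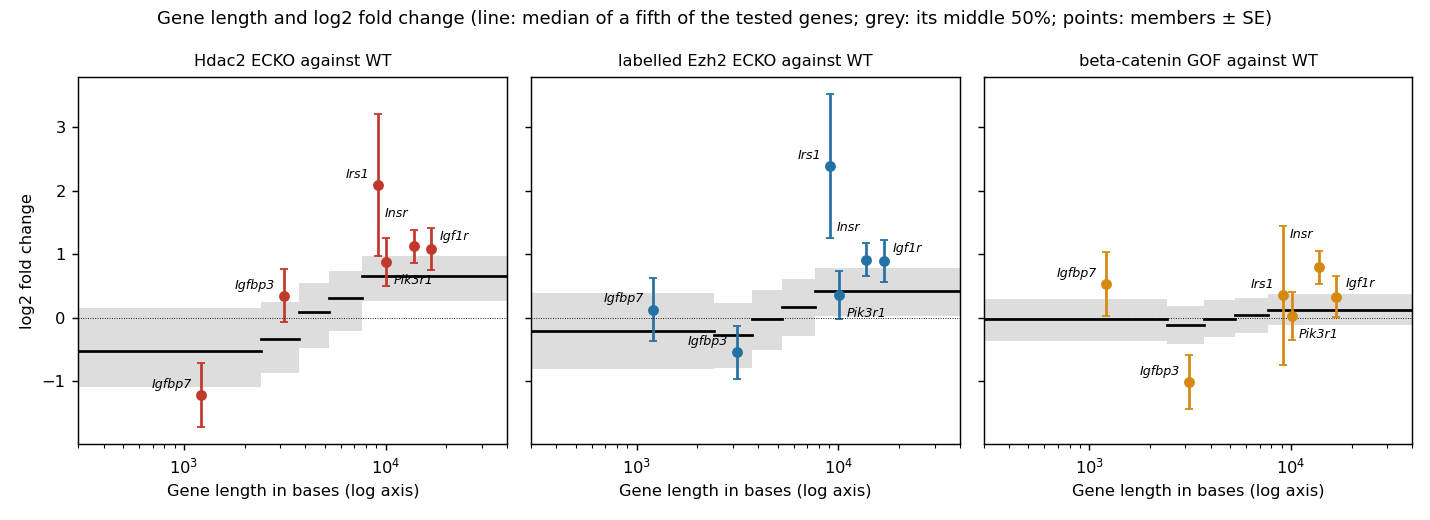
Gene length in bases (x axis, log scale) against log2 fold change (y axis), with the median (line) and middle 50% (grey) of each quintile of the tested genes and 6 members as points ± SE. The medians rise with length from −0.52 to 0.66 in Hdac2 ECKO, and the long receptors and the short Igfbp7 lie at opposite ends of the axis.

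Direct comparisons of the mutants called no member. Between Hdac2 ECKO and labelled Ezh2 ECKO 0.0239% of genes passed, and the member with the smallest p was Irs2 (edgeR adjusted p 0.54). Between beta-catenin GOF and Hdac2 ECKO (0.0716% of genes) it was Igfbp7 (adjusted p 0.17), higher in beta-catenin GOF. The difference was 1.75 on the log2 scale (SE 0.52), and 1.19 after the correction. Between beta-catenin GOF and labelled Ezh2 ECKO (0.0636% of genes) it was Irs2 (adjusted p 0.38), at least 6.79-fold higher in beta-catenin GOF against 3 counts per library, a bound of 2.89-fold without beta-catenin GOF replicate 1.

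At an unadjusted p under 0.05 these contrasts held 2, 4 and 0 members, where the shares of all genes were 8.19%, 21.1% and 13.2%. Insr differed between Hdac2 ECKO and labelled Ezh2 ECKO by a log2 fold change of 0.21 (SE 0.26), and between beta-catenin GOF and Hdac2 ECKO by −0.33 (SE 0.26). After the correction both turned, to −0.14 (SE 0.18) and 0.28 (SE 0.18), so the order of Insr among the mutants was not settled by these data.

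Over the 12 libraries Insr followed Igf1r, with a Pearson r of 0.85 on log2(CPM + 1), and Pik3r1 followed Igf1r with 0.75. Igfbp7 ran the other way, at −0.54 with Insr and −0.63 with Igf1r. These values describe 12 libraries that share the length slant. The genes most like Insr were Srebf1 (0.96), a transcription factor of lipid synthesis, Cnot3 (0.96), Prkg1 (0.95), Arl5c (0.94) and Tgfa (0.94), the last a ligand of the epidermal growth factor receptor.

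Igf1r was most like Sash1 (0.98), Ddx6 (0.97) and Fgd5 (0.97), and Pik3r1 like Dennd1a (0.94), Zfyve27 (0.93) and Prpf18 (0.92). Irs1 was most like Gm9747 (0.98), the gene that shares its exonic bases, Gm35339 (0.94) and Alkal2 (0.90), and Irs2 like Gpr20 (0.97), Grem1 (0.93) and Cacna2d1 (0.93). Igfbp3 was most like Ttc26 (0.90), Rbp7 (0.88) and Zcchc4 (0.86), and Igfbp7 like Dpm2 (0.98), Blvrb (0.97) and Gm45928 (0.97). The 3 genes most like Igfbp7 had 597 to 2782 bases and those most like Igf1r 6292 to 8568 bases. For the other members the lengths were mixed, with 2073 to 11036 bases for Insr, 5310 to 15344 for Pik3r1 and 1509 to 6581 for Irs1. For Irs2 they were 2144 to 12416 bases and for Igfbp3 718 to 10897.

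The other genes of the pathway, 90 in 8 lists from ligands to Foxo targets, gave 75 that could be tested. In Hdac2 ECKO 3 were higher and 3 lower past the threshold, 8.0% of the 75 against 9.2% of all genes (3.82% higher, 5.38% lower), and their median log2 fold change was 0.38, 0.089 after the correction. Among the higher were Sos2 (1.19, SE 0.25), an exchange factor that loads Ras, and Sesn3 (1.34, SE 0.36), a Foxo target. Lower were Socs1 (−3.29, SE 0.56), an inhibitor of cytokine and insulin receptor signalling, Hras (−1.75, SE 0.40) and Mapk3 (−1.42, SE 0.35), which encodes the kinase ERK1. After the correction 2 of the 6 passed, Socs1 and Hras. The count fell from 6 to 0 without WT replicate 1, WT replicate 2, Hdac2 ECKO replicate 1 or Hdac2 ECKO replicate 3, and became 11 without WT replicate 3 and 10 without Hdac2 ECKO replicate 2.

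In labelled Ezh2 ECKO 1 of the 75 rose and 2 fell, 4.0% against 1.03% of all genes (0.342% higher, 0.684% lower), with a median log2 fold change of 0.32, 0.18 after the correction. Sos2 rose from 36.5, 37.8 and 32.5 CPM in WT to 95.7, 63.2 and 92.4 CPM, which is 1.24 on the log2 scale (SE 0.25, edgeR adjusted p 0.0448, 0.0463 after the correction). Socs1 fell from 15.5, 16.8 and 6.91 CPM to 0.91, 3.23 and 1.44 CPM, which is −2.82 on the log2 scale (SE 0.55, edgeR adjusted p 0.0448, 0.0416 after the correction). Grb2, the adaptor that brings Sos to the receptors, fell from 47.6, 40.8 and 29.7 CPM to 16.1, 20.4 and 14.7 CPM (log2 fold change −1.21, SE 0.27, adjusted p 0.0478, 0.0556 after the correction). None of the 3 genes, which were named for passing the threshold, overlapped WT. Of all tested genes 11.1% lay wholly above WT in this contrast and 10.9% wholly below. The count of 3 fell to 0 without WT replicate 1, WT replicate 2, labelled Ezh2 ECKO replicate 1 or labelled Ezh2 ECKO replicate 3, and became 9 without WT replicate 3 and 18 without labelled Ezh2 ECKO replicate 2.

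In beta-catenin GOF 0 of the 75 passed in edgeR, and 5 had an unadjusted p under 0.05, where 6.07% of all genes did. DESeq2 called 1 of the 75, Socs1, and 13 of all 12577 tested genes higher and 25 lower. The 2 with the smallest p were Socs1, at −2.53 on the log2 scale (SE 0.54, edgeR adjusted p 0.35), and Htra1, a protease that cleaves IGF-binding proteins, at 0.99 (SE 0.34, adjusted p 0.69). Socs1 was at 2.05, 3.17 and 1.57 CPM in beta-catenin GOF and at 1.59, 1.44 and 0.97 CPM in Hdac2 ECKO, so all 9 mutant libraries lay below WT, as they did for 1.91% of tested genes and for the summed erythrocyte markers, whose part in the Socs1 levels was not tested. The lists' medians in Hdac2 ECKO ran from 0.040 for the Ras and MAP kinase branch to 0.69 for the mTOR branch, where 0 of 10 genes passed and 7 of 10 were above 0, with a corrected median of −0.021.

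**Figure D5:**
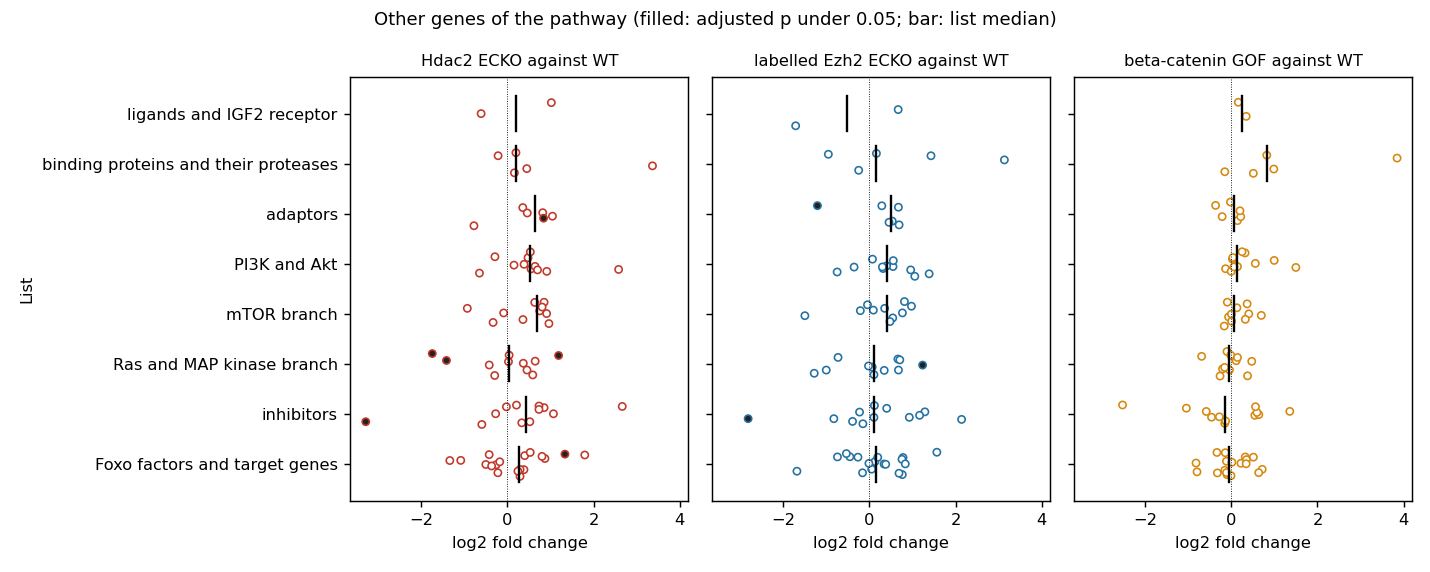
Log2 fold change against WT (x axis) of 75 tested genes in 8 pathway lists (y axis), 1 point per gene, filled where the edgeR adjusted p was under 0.05, with a bar at each list's median and vertical scatter only for legibility. The filled points number 6 for Hdac2 ECKO, 3 for labelled Ezh2 ECKO and 0 for beta-catenin GOF, and Socs1 is the leftmost gene in all 3 panels.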

How the data were processed

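RNA was measured in 12 libraries, 3 in each of 4 groups taken from the sample titles. Per the submitters' processing notes FastQC, cutadapt, STAR, featureCounts and DESeq2 were used on the build mm10; their versions, annotation, strand use and filters are not given in the sources used here. The deposited table is titled as normalized, but its values are whole-number counts whose totals differ between libraries and which hold an excess of even values (59.3% to 67.1% of values from 300 to 1000), so they were analysed as raw counts. Gene length in bases, an other unit, was deposited by the authors in the same table. Of 21638 genes 99.1% matched GENCODE M21 (GRCm38) by symbol and position.

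The 12577 genes whose mean count reached 10 were tested with edgeR 4.0.16 in R 4.3.3 (quasi-likelihood F test, TMM, 1 model over all 12 libraries with a group term, Benjamini-Hochberg over all tested genes, threshold 0.05). Standard errors came from the F statistic. The correction removed a smooth trend on length and GC content (mgcv 1.9.3) from each library. Alternatives were other scalings, no filter, a minimum mean count of 50, the replicate block, a fit of only the 2 groups compared, limma 3.58.1 on log2(CPM + 1) or log2(CPM + 0.1), sample quality weights, DESeq2 1.42.0 and leaving out each library. The fits were first tested on simulated data, where a larger share of DESeq2's calls than of edgeR's fell on unchanged genes.

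Depth was 24781070 to 36109975 counts, so 3 counts equal 0.0792 to 0.118 CPM. Reads carry no molecular identifiers, and such floors cover counting error only. Replicates were distinct libraries (chi-square per degree of freedom at least 66.3), but no label ties them to separate animals, so p-values measure the spread between these libraries, which may be technical. Same-numbered libraries deviated together (r 0.19, 0.43 and 0.13) only between Hdac2 ECKO and labelled Ezh2 ECKO, where the block changed no member's call.

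Members and lists were chosen with earlier results of these data known. Named were all members in the contrasts against WT, in contrasts between mutants the members past the threshold or else the one with the smallest p, up to 6 pathway genes per direction past the threshold (the 2 smallest p where fewer than 2 passed), and the 3 genes most correlated with each tested member (5 for Insr). Of the pathway genes this rule names, 1 is not reported here.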

Additional observations from a re-analysis of the deposited data

How the results depend on the processing

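Of the tested log2 fold changes of single genes under all alternatives, 343 kept direction and side of the threshold, 52 lost a call, 12 gained one and 14 changed sign. Of those of members in Hdac2 ECKO, described without a test, 105 moved by less than the replicate spread and 12 by more.

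The count of members past the threshold in Hdac2 ECKO was 2, which the choice of members fixed in part. It became 4 with no filter, 4 with only the 2 groups compared and 0 with the length and GC correction. When single libraries were left out it was 0 to 3. Over all genes, calls higher and lower were 905 and 1374 of 20343 with no filter. With only the 2 groups they were 526 and 940 of 12575. In labelled Ezh2 ECKO (0) the member count became 1 with no filter, 4 with sample quality weights and 1 with DESeq2, and 0 to 3 without single libraries. Over all genes these 3 settings called 556 higher and 811 lower of 20343, 1850 and 1893 of 12577, and 614 and 657 of 12577. In beta-catenin GOF (0) the member count was 1 with no filter (all genes: 61 higher and 96 lower of 20343) and 0 to 0 without single libraries. Between Hdac2 ECKO and labelled Ezh2 ECKO it was 1 with no filter (all genes: 103 higher and 96 lower). Between beta-catenin GOF and Hdac2 ECKO it was 2 with no filter (715 and 263) and 3 with quality weights (1812 and 1527). Between beta-catenin GOF and labelled Ezh2 ECKO it was 1 with quality weights (838 and 628) and 0 to 1 without single libraries.

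Pathway genes in Hdac2 ECKO (6) became 17 with library size alone, 14 with no filter and 2 with the correction. They became 33 with quality weights, 17 with DESeq2 and 0 to 11 without single libraries. Over all 12577 genes, quality weights called 2729 higher and 2645 lower there, and DESeq2 1040 and 1437. No filter called 905 and 1374 of 20343. All-gene calls for library size alone and the correction are given below. In labelled Ezh2 ECKO (3) the pathway genes became 1 with library size alone, 13 with no filter and 0 with only the 2 groups compared. They became 23 with quality weights, 12 with DESeq2 and 0 to 18 without single libraries. Over all 12577 genes, quality weights called 1850 higher and 1893 lower there, and DESeq2 614 and 657. No filter called 556 and 811 of 20343, and the fit of only the 2 groups 8 and 9 of 12574. In beta-catenin GOF (0) the pathway genes became 1 with no filter, with quality weights and with DESeq2. Over all genes these settings called 61 higher and 96 lower of 20343, 6 and 20 of 12577, and 13 and 25 of 12577.

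The replicate block gave 10 pathway genes in Hdac2 ECKO (all genes: 717 higher and 1115 lower) and 6 in labelled Ezh2 ECKO (176 and 360). With the block the sign changed for Igfbp7 in labelled Ezh2 ECKO (−0.21) and Irs1 in beta-catenin GOF (−0.14). In these contrasts the libraries share only a number. Igfbp7 in labelled Ezh2 ECKO was also −0.87 with quality weights, −0.32 with limma at either pseudocount and −1.12 to 0.48 without single libraries. Irs1 in beta-catenin GOF was −0.82 with quality weights, −0.21 with limma at a pseudocount of 0.1 and −1.26 to 0.89 without single libraries. Pik3r1 turned to −0.041 in labelled Ezh2 ECKO with the correction, and in beta-catenin GOF to −0.092 with the correction, −0.019 with quality weights and −0.36 to 0.25 without single libraries. The cause of these changes was not tested.

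Scaling by library size alone moved the all-gene median log2 fold change in Hdac2 ECKO from 0.097 to 0.34 and the calls from 480 higher and 677 lower to 1469 and 357; in labelled Ezh2 ECKO calls went from 43 and 86 to 17 and 13. The correction gave 213 and 620, and 165 and 136. In beta-catenin GOF edgeR called 0 genes, 763 had an unadjusted p under 0.05, and DESeq2 called 13 higher and 25 lower. Irs1 and Irs2 could not be tested at a mean count of at least 50, and depth limits both and Igf1.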
